A study of Mus musculus with 2 samples.

Results

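The platelet-derived growth factor (PDGF) family was followed through mouse omental tumors by its 6 genes, the ligands Pdgfa, Pdgfb, Pdgfc and Pdgfd and the receptors Pdgfra and Pdgfrb. They were chosen by gene symbol, and all 6 were found among the 32285 genes counted. The tumors came from KPCA cells, a mouse ovarian cancer line made from fallopian tube epithelial cells, in which Fst (follistatin) had been knocked out. KPCA.FSTKO cells carried only that knockout (KPCA_FSTKO in the sample records), whereas KPCA.FSTKO_hFSTL3 cells were 1 clone of them selected in geneticin after transfection with a human FSTL3 plasmid and picked for FSTL3 secretion. Both lines had been grafted into the abdominal cavity of immunocompetent female C57BL/6J mice, aged 12 to 16 weeks, and the omental tumors were collected on day 10. Each genotype was 1 single-cell 3′ library of 4 pooled tumors, so the 2 libraries allowed no test between genotypes. KPCA.FSTKO had been made from the KPCA.C clone, and the KPCA.FSTKO_hFSTL3 line had passed through a further selection of 1 clone. Human FSTL3 itself was not a row of the mouse count table.

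PDGF ligands are secreted dimers. A dimer of the A or C chains signals mainly through the alpha receptor (Pdgfra), the B chain binds both receptors, and the D chain signals mainly through the beta receptor (Pdgfrb). The C and D chains are secreted inactive and need cleavage by proteases. In developing tissue, endothelial PDGF-B recruits pericytes that carry Pdgfrb, and in carcinomas tumor-derived PDGF is known to act on fibroblasts, which carry both receptors. Both receptors are tyrosine kinases. In the GRCm38 (mm10) annotation Pdgfa runs from 138976014 to 138997370 on chromosome 5 (minus strand), Pdgfb from 79995874 to 80014977 on chromosome 15 (minus), Pdgfc from 81036416 to 81214040 on chromosome 3 (plus), Pdgfd from 6168584 to 6378850 on chromosome 9 (plus) and Pdgfra from 75152292 to 75198215 on chromosome 5 (plus).

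After removal of barcodes with 20% or more mitochondrial counts, or with 200 or fewer or 8000 or more genes, 6777 of 7582 barcodes remained in KPCA.FSTKO and 4041 of 4244 in KPCA.FSTKO_hFSTL3, at medians of 17253 and 15071 UMIs (unique molecular identifiers, counted transcripts). Cells were placed in classes by marker genes that did not include the 6 PDGF genes: a class needed 3 or more of its own markers, each at 2 or more UMIs and 100 or more CPM (counts scaled to a total of 1000000), and no other lineage. Pericytes, however, could also open the stromal gate. Between the pericyte and endothelial gates the list with more markers on decided, and ties were left out. The KPCA.FSTKO library gave 3558 cancer-gated cells, 362 stromal cells (230 fibroblast, 104 myofibroblast and 28 mesothelial), 32 pericytes, 80 endothelial cells, 853 macrophages, 102 neutrophils and 57 T or NK cells. The KPCA.FSTKO_hFSTL3 library stood apart: 3474 of its barcodes (86.0%) held more than 3000 CPM of 15 pancreatic acinar genes together with markers of several lineages, and were set aside as acinar-rich. That left 233 cancer-gated cells, 52 stromal cells (27 of them myofibroblasts), 141 macrophages and, under 20 cells each, 16 fibroblasts, 11 pericytes, 10 endothelial cells and 9 mesothelial cells. The fixed cancer markers were not all present: in cancer-gated cells Krt8, Krt18, Krt19 and Hmga2 were each at 500.2 CPM or more in both libraries, but Epcam was at 5.55 CPM in KPCA.FSTKO and 0.439 CPM in KPCA.FSTKO_hFSTL3, and Pax8, a fallopian tube epithelial factor, at 9.13 and 28.1 CPM. The libraries shared 12 barcode sequences. Levels below are UMIs summed over a class and scaled to CPM, with exact 95% Poisson intervals, and ratios carry exact conditional binomial intervals. All intervals cover counting error within 1 library only, and no value here has a biological replicate.

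Pdgfa, which encodes the A chain, was highest in pericytes and next in the cancer cells. In KPCA.FSTKO it stood at 362 CPM in pericytes (309 to 422; 166 UMIs in 32 cells), at 89.6 CPM in cancer-gated cells (87.8 to 91.4), at 34.7 CPM in myofibroblasts and at 23.4 CPM in macrophages. The pericyte level was 4.05-fold that of cancer-gated cells (3.45 to 4.72), and the cancer level 2.58-fold that of myofibroblasts (2.06 to 3.28). Below myofibroblasts, each class overlapped the next within counting error. By cell, 81.2% of pericytes and 68.9% of cancer-gated cells had a Pdgfa UMI, against 5.00% of endothelial cells, a low class for this gene. Their median depth was 4952 UMIs against 27805.5 in cancer-gated cells. T or NK cells (3.51%) and neutrophils (0.980%) had lower shares. The same order held in KPCA.FSTKO_hFSTL3, with 538 CPM in 11 pericytes (455 to 631), 151 CPM in cancer-gated cells (143 to 160), 62.0 CPM in myofibroblasts and 39.8 CPM in macrophages. Because the cancer cells were so many, they held 82.5% of all Pdgfa UMIs in KPCA.FSTKO, whereas the pericytes, 0.472% of the barcodes, held the highest level per cell class.

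**Figure D1:**
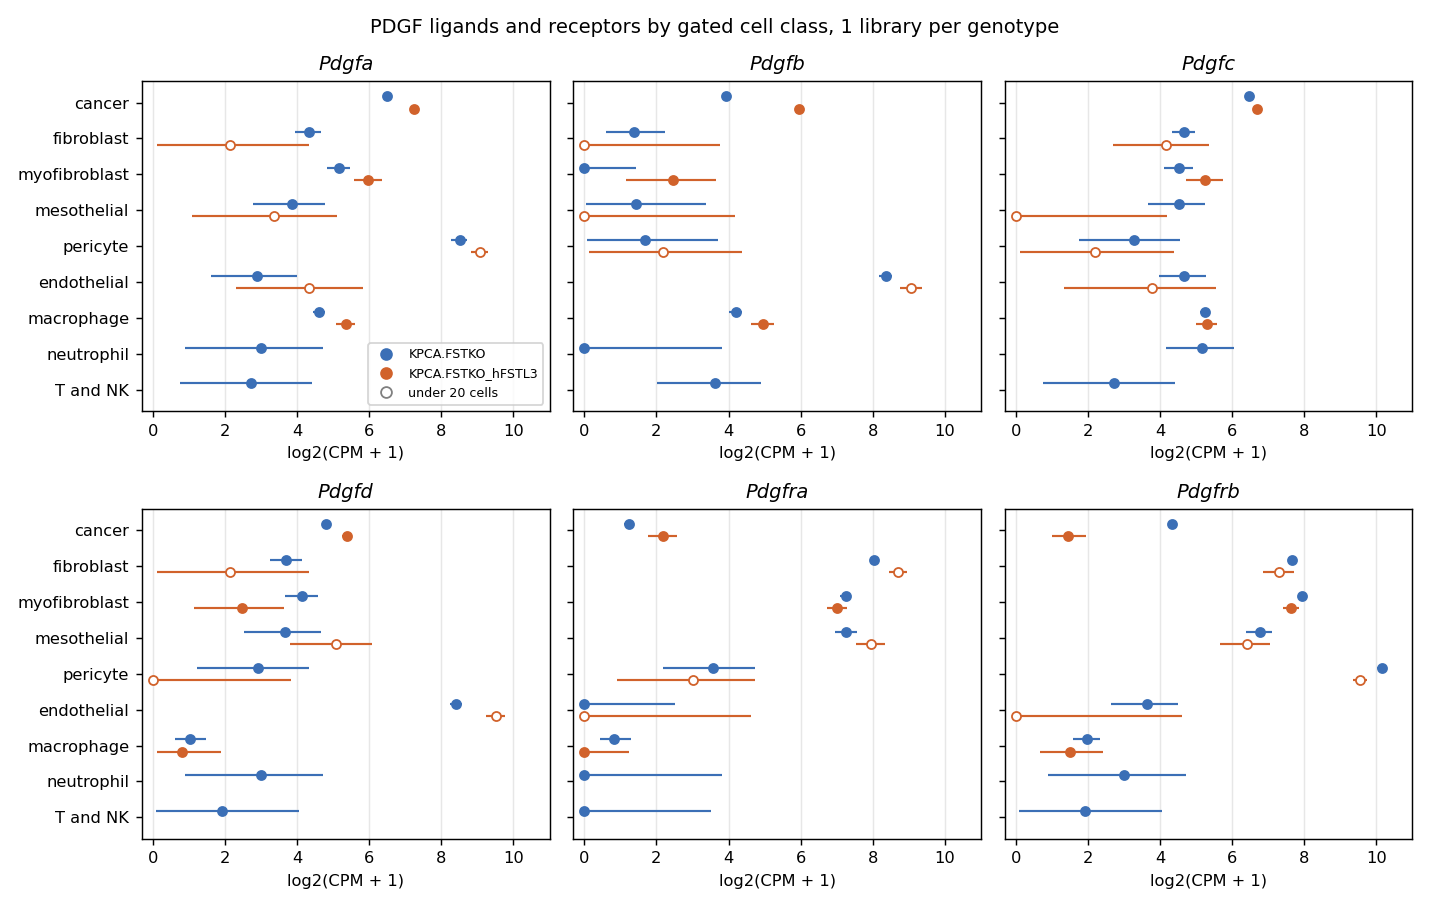
Level of each PDGF gene, as log2(CPM + 1), in 9 gated classes (rows) of the KPCA.FSTKO library (blue) and the KPCA.FSTKO_hFSTL3 library (orange). Points are UMIs summed over the class, bars are exact 95% Poisson intervals for counting error, and open points have under 20 cells. Pdgfb and Pdgfd stand highest in endothelial cells, Pdgfa and Pdgfrb in pericytes, Pdgfra in the fibroblast, myofibroblast and mesothelial classes, and Pdgfc in cancer-gated cells.

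Pdgfb, the B chain and the classical endothelial signal to pericytes, was an endothelial transcript in both libraries. In KPCA.FSTKO it reached 329 CPM in endothelial cells (290 to 372; 60.0% of cells), 17.3 CPM in macrophages (15.0 to 19.9) and 14.4 CPM in cancer-gated cells (13.7 to 15.1). The endothelial level was 19.0-fold the macrophage level (15.7 to 22.9), and macrophages were 1.21-fold above cancer-gated cells (1.04 to 1.40). Stromal cells held almost none: 6 UMIs over 362 cells (1.01 CPM), and none in 104 myofibroblasts, which allows up to 1.71 CPM. In KPCA.FSTKO_hFSTL3 the endothelial level was 536 CPM, from only 10 cells (428 to 664). Cancer-gated cells were there at 61.1 CPM (56.1 to 66.3), 2.05-fold the macrophage level of 29.7 CPM (1.62 to 2.63), whereas the same ratio was 0.828 (0.715 to 0.964) in KPCA.FSTKO. The latter order was not stable: without the 5% of cells with most Pdgfb UMIs, cancer over macrophage was 0.09 on the log2 scale in KPCA.FSTKO and 1.42 in KPCA.FSTKO_hFSTL3. A Pdgfb UMI was seen in 25.8% of the KPCA.FSTKO cancer-gated cells, whereas the KPCA.FSTKO_hFSTL3 share was 62.2%. In stromal cells, a low class, it was seen in 1.66% and 3.85% at median depths of 15964 and 23917 UMIs. After each cell was thinned to 1000 UMIs the cancer shares were 1.18% and 6.87%.

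Pdgfc, the C chain, was led by the cancer cells. In KPCA.FSTKO it stood at 86.8 CPM in cancer-gated cells (85.0 to 88.6; 70.8% of cells), 2.34-fold the 37.1 CPM of macrophages (2.12 to 2.58), and the classes below macrophages overlapped their neighbours within counting error, from 35.2 CPM in neutrophils to 5.61 CPM in T or NK cells. Only 3.51% of the shallower T or NK cells (median 4979 UMIs) had a Pdgfc UMI. In KPCA.FSTKO_hFSTL3 the levels were 102 CPM in cancer-gated cells (96.0 to 109), 38.3 CPM in macrophages and 37.2 CPM in myofibroblasts. The cancer over stromal ratio was 3.72 in KPCA.FSTKO and 3.76 in KPCA.FSTKO_hFSTL3. Over the processing alternatives it ran from 0.92 to 2.40 on the log2 scale in KPCA.FSTKO and from 1.87 to 2.23 in the other library.

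Pdgfd, the D chain, shared the endothelial peak of Pdgfb. In KPCA.FSTKO it was at 339 CPM in endothelial cells (300 to 382; 71.2% of cells), 12.7-fold the 26.8 CPM of cancer-gated cells (11.1 to 14.4), which were in turn 1.61-fold above the 16.7 CPM of myofibroblasts (1.16 to 2.30). Mesothelial cells were at 11.8 CPM, and the remaining neighbours overlapped. Macrophages, the low class, were at 1.03 CPM (1.29% of cells, against 26.4% of cancer-gated cells). In KPCA.FSTKO_hFSTL3 it was at 727 CPM in endothelial cells (600.0 to 874; 10 cells, of which 1 held 53.5% of the UMIs), 41.0 CPM in cancer-gated cells and 4.51 CPM in myofibroblasts. Unlike Pdgfb, Pdgfd was nearly absent from macrophages in both libraries, with 12 and 2 UMIs.

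**Figure D2:**
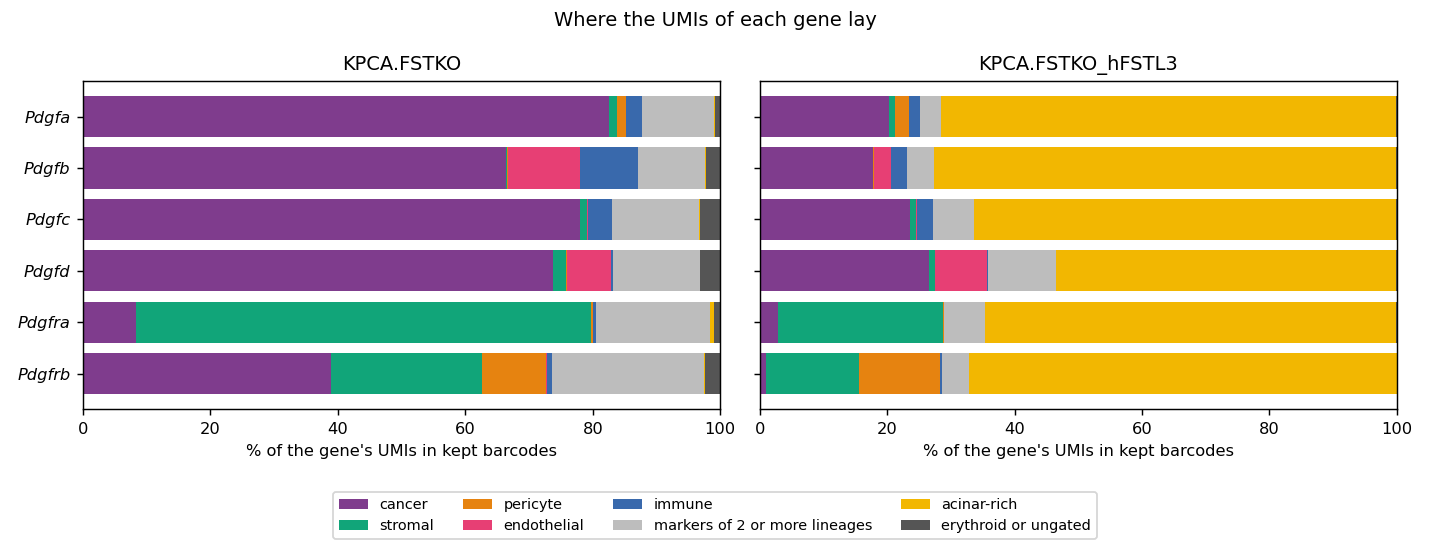
Percent of each gene's UMIs (x axis) that lay in each class of barcodes, in KPCA.FSTKO (left) and KPCA.FSTKO_hFSTL3 (right); a bar sums to 100%. In KPCA.FSTKO cancer-gated cells hold 66.3% to 82.5% of the UMIs of each ligand. In KPCA.FSTKO_hFSTL3 the acinar-rich barcodes hold 53.4% to 72.6% of the UMIs of every PDGF gene. For all genes together, these hold 105210985 of 142160061 UMIs in KPCA.FSTKO and 53710786 of 69751304 in KPCA.FSTKO_hFSTL3.

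The bulk of each ligand therefore lay in the cancer compartment of KPCA.FSTKO, at 82.5% of UMIs for Pdgfa, 66.3% for Pdgfb, 77.9% for Pdgfc and 73.7% for Pdgfd, even where another class had the higher level. Cells that carried markers of more than 1 lineage were kept out of these classes and held 13.5% of the Pdgfd UMIs. In KPCA.FSTKO_hFSTL3 no such account was possible, since the acinar-rich barcodes held 53710786 of the 69751304 UMIs of all genes. They held 71.3% of the Pdgfa UMIs, 72.6% of the Pdgfb UMIs, 66.3% of the Pdgfc UMIs and 53.4% of the Pdgfd UMIs. Acinar transcripts stood at 28.4 CPM in cancer-gated cells of KPCA.FSTKO and 416 CPM in those of KPCA.FSTKO_hFSTL3. Scaled by these acinar transcripts to the profile of the acinar-rich barcodes, an assumed mixture, the amounts for cancer-gated cells of KPCA.FSTKO_hFSTL3 were 3.86 CPM of Pdgfa, 1.82 CPM of Pdgfb, 2.10 CPM of Pdgfc and 0.599 CPM of Pdgfd, beside measured levels of 151, 61.1, 102 and 41.0 CPM. For the receptors they were 0.576 CPM of Pdgfra and 0.884 CPM of Pdgfrb, beside measured levels of 3.51 and 1.76 CPM. The part of such RNA in the levels was not tested.

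Pdgfra, the alpha receptor, marked the stromal cells and few others. In KPCA.FSTKO it stood at 259 CPM in fibroblasts (241 to 277; 73.5% of cells), 153 CPM in mesothelial cells (123 to 188) and 151 CPM in myofibroblasts (135 to 169). Fibroblasts were 1.69-fold above mesothelial cells (1.36 to 2.12), mesothelial cells and myofibroblasts did not differ beyond counting error (1.01; 0.793 to 1.28), and myofibroblasts were 13.9-fold above pericytes (5.88 to 43.0), which had 5 UMIs over 32 cells. No UMI was found in endothelial cells, neutrophils or T and NK cells, which allows up to 4.70, 12.99 and 10.4 CPM. In cancer-gated cells it was at 1.38 CPM, with a UMI in 3.68% of cells against 1.06% of macrophages (median depth 12864). Stromal cells of KPCA.FSTKO exceeded its cancer-gated cells by a ratio of 152 (128 to 181). For KPCA.FSTKO_hFSTL3 it was 59.0 (40.8 to 87.8), with 207 CPM in stromal cells and no UMI in macrophages.

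Pdgfrb, the beta receptor, was the pericyte receptor, present in the stroma at a lower level. All 32 KPCA.FSTKO pericytes had it, at 1131 CPM (1036 to 1233), and so did all 11 KPCA.FSTKO_hFSTL3 pericytes, at 744 CPM (647 to 852). In KPCA.FSTKO myofibroblasts followed at 245 CPM (224 to 266; 87.5% of cells), fibroblasts at 202 CPM (186 to 218; 70.4%) and mesothelial cells at 108 CPM (82.9 to 137). Each of these neighbours differed beyond counting error, the pericytes being 4.62-fold above myofibroblasts (4.09 to 5.23) and myofibroblasts 1.21-fold above fibroblasts (1.08 to 1.36). Cancer-gated cells came next at 19.2 CPM (18.4 to 20.1), 5.60-fold below mesothelial cells (4.29 to 7.18), and overlapped the 11.5 CPM of endothelial cells. Macrophages were at 2.92 CPM. Since cancer-gated cells were far more numerous, they still held 38.9% of the Pdgfrb UMIs of KPCA.FSTKO, against 8.36% of its Pdgfra UMIs. In KPCA.FSTKO_hFSTL3 the cancer level was 1.76 CPM (1.00 to 2.85), not separable from the 1.86 CPM of macrophages (ratio 0.945; 0.331 to 3.30). The same assumed mixture came to 0.884 CPM in the former and 1.93 CPM in the latter.

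The receptors were found together in the stroma and apart in pericytes. In KPCA.FSTKO both receptors were detected in 55.2% of fibroblasts and 68.3% of myofibroblasts, and in KPCA.FSTKO_hFSTL3 in 77.8% of myofibroblasts. Of the 32 KPCA.FSTKO pericytes, 9.38% had both and 90.6% had Pdgfrb alone. Pericytes carried a ligand and a receptor that do not form the main pair, with Pdgfa in 26 of 32 cells and Pdgfrb in every one, but Pdgfra, the receptor of the A chain, in only 3. Endothelial cells were the reverse, with Pdgfb or Pdgfd in most cells and a Pdgfrb UMI in 6.25%. With clusters in place of gates, endothelial Pdgfrb was at 78.6 CPM in KPCA.FSTKO and 132 CPM in KPCA.FSTKO_hFSTL3, against 11.5 CPM and 0 UMIs by gate. The cause of that difference was not tested. In cancer-gated cells of KPCA.FSTKO 18.7% had Pdgfrb alone and 0.506% had both receptors. Cancer-gated cells that had both Pdgfa and Pdgfb UMIs made up 21.1% in KPCA.FSTKO and 57.9% in KPCA.FSTKO_hFSTL3, at median depths of 27805.5 and 39199 UMIs.

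Between the libraries, a gene was called higher or lower in a class when it had 100 or more UMIs over both libraries and its CPM ratio, KPCA.FSTKO_hFSTL3 over KPCA.FSTKO, was at least 2 in that direction, a rule of size with no test behind it. In cancer-gated cells all 6 genes could be read, 2 were called higher and 1 lower, beside a background of 2.99% of 12901 genes called higher and 7.12% called lower. Pdgfb had the largest ratio, from 14.4 to 61.1 CPM (1512 and 556 UMIs), a ratio of 4.25 or 2.09 on the log2 scale (1.94 to 2.23). Pdgfra went from 1.38 to 3.51 CPM on 145 and 32 UMIs, a log2 ratio of 1.35 (0.75 to 1.91). Pdgfrb went the other way, from 19.2 to 1.76 CPM (2022 and 16 UMIs), a log2 ratio of -3.45 (-4.26 to -2.75). The other ligands had smaller ratios, 0.76 (0.67 to 0.84) for Pdgfa, 0.61 (0.45 to 0.77) for Pdgfd and 0.24 (0.14 to 0.34) for Pdgfc, beside a median of -0.01 over all genes read.

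**Figure D3:**
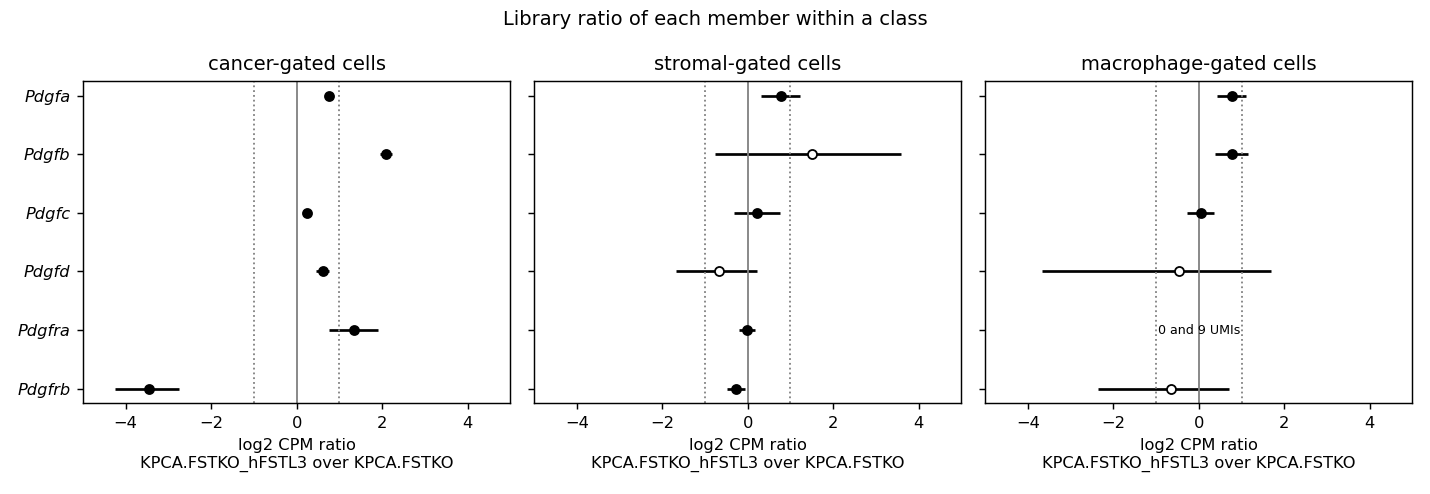
Log2 CPM ratio (x axis), KPCA.FSTKO_hFSTL3 over KPCA.FSTKO, of the 6 genes in cancer-gated, stromal-gated and macrophage-gated cells, with 95% counting intervals; dotted lines mark a ratio of 2 in each direction and open points have under 100 UMIs. Only Pdgfb, Pdgfra and Pdgfrb of the cancer-gated cells are past a dotted line with 100 or more UMIs.

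In stromal-gated cells none of the 4 PDGF genes with enough UMIs was called in either direction, where 1.21% of 7739 genes were called higher and 2.51% lower. Pdgfra stood at 209 CPM in KPCA.FSTKO and 207 CPM in KPCA.FSTKO_hFSTL3, a log2 ratio of -0.01 (-0.20 to 0.17). Pdgfrb went from 208 to 172 CPM, -0.27 (-0.48 to -0.07), and Pdgfa from 24.1 to 41.6 CPM, 0.78 (0.32 to 1.23). The acinar-rich mixture came to 5.34 CPM for the last. That ratio was 1.03 with clusters in place of gates, past the rule, and 0.01 with cells of more than 1 lineage placed in the class with most of their markers. The pooled class changed in makeup, from 230 fibroblast, 104 myofibroblast and 28 mesothelial cells to 16, 27 and 9. By class, the Pdgfra log2 ratio was 0.69 (0.40 to 0.96) in fibroblasts and 0.69 (0.17 to 1.19) in mesothelial cells. In myofibroblasts it was -0.24 (-0.56 to 0.08). The first 2 ratios rest on under 20 cells of KPCA.FSTKO_hFSTL3. There 1 of 16 fibroblasts held 28.7% of the Pdgfra UMIs of its class, and 1 of 9 mesothelial cells 28.3%. Pdgfa was at 0.84 (0.31 to 1.36) in myofibroblasts, with 60 and 1 UMIs in fibroblasts. In macrophages, where 1.6% of 8834 genes were called higher and 1.86% lower, none of the 3 readable genes was called. Pdgfa and Pdgfb were at log2 ratios of 0.77 (0.43 to 1.10) and 0.78 (0.39 to 1.16), and Pdgfc at 0.05 (-0.28 to 0.36). Beside the Pdgfa level of 39.8 CPM and the Pdgfb level of 29.7 CPM in KPCA.FSTKO_hFSTL3 macrophages, the same assumed mixture came to 8.45 and 3.99 CPM. In the classes under 20 cells, which are outside the rule for named values, Pdgfrb of pericytes was at a log2 ratio of -0.60 and Pdgfb and Pdgfd of endothelial cells at 0.70 and 1.10.

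Within the cancer compartment, the Pdgfb difference appeared in the 4 clusters with enough cells of both libraries. Cells of both libraries had been clustered together, and clusters 1, 2, 8 and 13 held 20 or more cancer-gated cells of each. The Pdgfb ratio lay between 3.62 and 4.56 in these 4 clusters and the Pdgfa ratio between 1.11 and 2.04, higher in KPCA.FSTKO_hFSTL3 in 4 of 4 for both. Pdgfc was between 1.04 and 1.36. Pdgfd had no common direction, with ratios from 0.456 to 2.48. Pdgfrb was lower in 4 of 4, with 11 UMIs in the 62 KPCA.FSTKO_hFSTL3 cells of cluster 1 and 0 in those of the other 3. In cluster 13 the libraries could not be separated, since KPCA.FSTKO had only 5 UMIs (2.83 CPM, 0.919 to 6.60). The 0 UMIs of KPCA.FSTKO_hFSTL3 allow up to 6.22 CPM there. In cluster 12, with 227 and 10 cells, Pdgfb was at 4.70 CPM in KPCA.FSTKO and 3.84 CPM in KPCA.FSTKO_hFSTL3, the latter 1 UMI. A further 30 cancer-gated cells of KPCA.FSTKO_hFSTL3 lay in cluster 9 and 18 in cluster 11, where KPCA.FSTKO had 1 cell each. Both clusters were named for their acinar-rich barcodes, though these cells were themselves under the acinar limit. The Pdgfb level of the 30 cells was 148 CPM (109 to 198) and that of the 18 cells 32.1 CPM (12.9 to 66.1). All of them count in the cancer-gated Pdgfb ratio of 4.25.

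Pdgfc and Pdgfd varied more within the cancer cells than between the libraries. Cluster 10, with 255 cancer-gated cells of KPCA.FSTKO, had 333 CPM of Pdgfc (314 to 354), against 115 CPM in cluster 1, 71.0 CPM in cluster 2 and 19.5 CPM in cluster 12. It also had 130 CPM of Pdgfd (117 to 143), against 38.5 CPM in cluster 1, 10.3 CPM in cluster 2 and 2.02 CPM in cluster 12. The 7 KPCA.FSTKO_hFSTL3 cells of cluster 10 had 297 CPM of Pdgfc and 386 CPM of Pdgfd. The KPCA.FSTKO cells of cluster 10 were shallow, with a median of 9474 UMIs and 11.3% mitochondrial counts, but the 7 KPCA.FSTKO_hFSTL3 cells had a median of 38038 UMIs and 6.46%. In KPCA.FSTKO the nuclear transcript Malat1 stood at 40627 CPM in cluster 10, compared with 18924 CPM in cluster 1 and 1648 CPM in cluster 12. The part of RNA quality in these levels was not tested, and whether intronic reads were counted is not given in the sources used here. Pdgfa did not share the pattern and Pdgfb did so weakly, at 24.4 CPM in cluster 10 and 17.3 CPM in cluster 1.

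**Figure D4:**
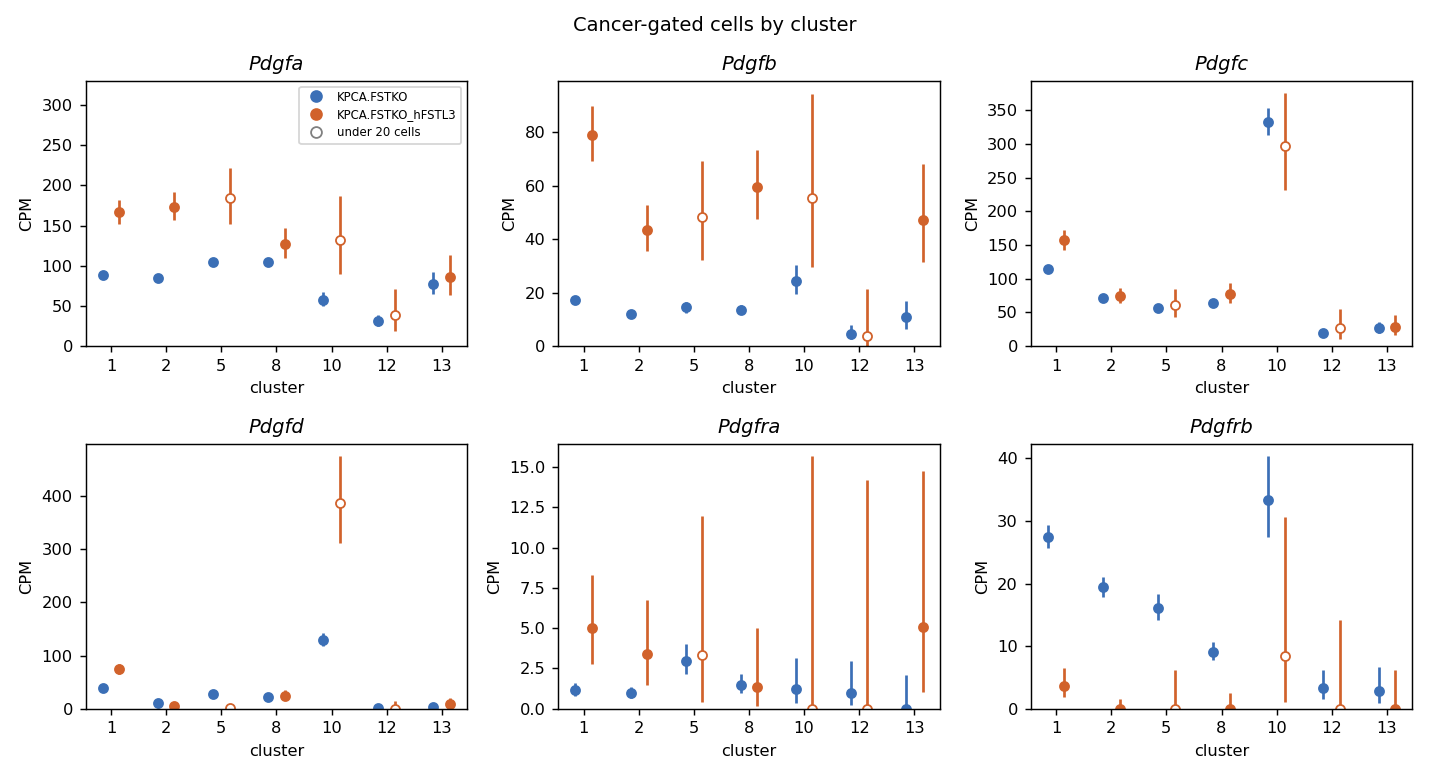
CPM of each PDGF gene (y axis, a scale for each gene) in the cancer-gated cells of 7 clusters (x axis), KPCA.FSTKO in blue and KPCA.FSTKO_hFSTL3 in orange, with exact 95% Poisson intervals; open points have under 20 cells. Pdgfc and Pdgfd peak in cluster 10, and Pdgfb of KPCA.FSTKO_hFSTL3 lies above that of KPCA.FSTKO in clusters 1, 2, 8 and 13.

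The low level of Pdgfrb in cancer-gated cells of KPCA.FSTKO_hFSTL3 moved together with some stromal markers but not others, Col3a1 being the one most often on. Cancer-gated cells could carry up to 2 markers of any one stromal or pericyte list, and the 13 fibroblast markers summed to 662 CPM in KPCA.FSTKO but 252 CPM in the other library. Most of that sum was Col3a1, at 572 and 175 CPM, whereas Col1a1 (21.2 and 32.1 CPM) and Col1a2 (6.13 and 9.11 CPM) were higher in KPCA.FSTKO_hFSTL3. In KPCA.FSTKO, Pdgfrb stood at 0.969 CPM in the 1241 cancer-gated cells with none of these markers on, at 20.03 CPM in the 1702 cells with 1 and at 60.9 CPM in the 615 cells with 2. In KPCA.FSTKO_hFSTL3 the levels were 0.363, 1.55 and 9.76 CPM in 139, 65 and 29 cells. Among the cells with none on, the log2 ratio of Pdgfrb between libraries was -1.42 and its interval took in 0 (-4.51 to 0.54), on 38 and 2 UMIs. Pdgfb kept its ratio there, 1.91 (1.69 to 2.12), as did Pdgfra, 1.32 (0.53 to 2.06), whereas Pdgfd was at -0.15 (-0.47 to 0.16).

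**Figure D5:**
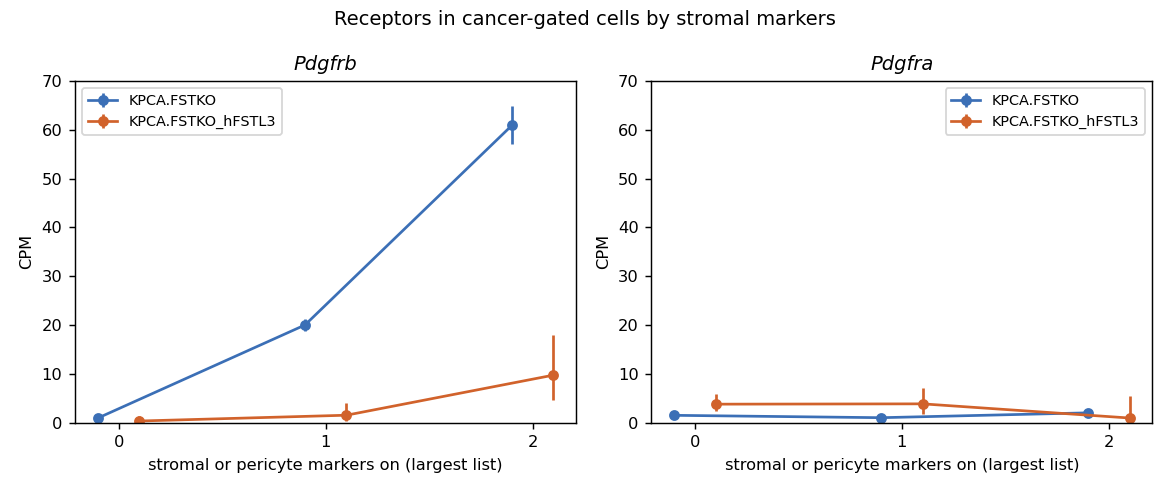
CPM of Pdgfrb (left) and Pdgfra (right) in cancer-gated cells (y axis) by the number of stromal or pericyte markers on in the list with most (x axis, 0 to 2), for KPCA.FSTKO (blue) and KPCA.FSTKO_hFSTL3 (orange), with exact 95% Poisson intervals. Pdgfrb lies at 0.969, 20.03 and 60.9 CPM in KPCA.FSTKO, while Pdgfra lies between 1.04 and 2.04 CPM.

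The marker most often on was Col3a1, a fibrillar collagen gene picked here after its values were seen. It was on in 60.0% of the cancer-gated cells in KPCA.FSTKO, while KPCA.FSTKO_hFSTL3 had it on in 29.2%. In KPCA.FSTKO Pdgfrb was at 32.5 CPM in the 2135 Col3a1-on cells and at 1.15 CPM in the 1423 others. In KPCA.FSTKO_hFSTL3 it was at 3.72 CPM in 68 on-cells and 0.935 CPM in 165 others. The log2 ratio between libraries was -3.13 (-4.19 to -2.24) in on-cells and -0.29 (-1.81 to 0.93) in the others. By other markers of the same lists, Pdgfrb of KPCA.FSTKO cancer-gated cells went both ways. It was at 196 CPM in Fap-on cells against 14.3 CPM in Fap-off cells, and at 188 against 18.1 CPM for Notch3. For Dcn it was at 10.1 against 19.5 CPM, for Col1a2 at 12.6 against 19.2 CPM and for Acta2 at 19.3 against 19.2 CPM. In KPCA.FSTKO stromal cells Col3a1 was at 11414 CPM, Col1a1 at 5734 CPM and Col1a2 at 4782 CPM. For each Pdgfra UMI there were 13.9 Pdgfrb UMIs (11.8 to 16.6) in cancer-gated cells of KPCA.FSTKO, 0.995 in its stromal cells and 3.78 in its macrophages, which had 9 Pdgfra UMIs. In cancer-gated cells of KPCA.FSTKO_hFSTL3 the number was 0.50 (0.26 to 0.94). The Pdgfrb UMIs of KPCA.FSTKO cancer-gated cells were also uneven, with 63.8% of them in 178 of 3558 cells, 5 or more in 119 cells and up to 32 in 1 cell. No KPCA.FSTKO_hFSTL3 cancer-gated cell had 5 or more. Cells with markers of more than 1 lineage, left out of the cancer class, held Pdgfrb at 87.7 CPM in KPCA.FSTKO and 32.6 CPM in KPCA.FSTKO_hFSTL3. What part cells of mixed content play in the cancer-gated Pdgfrb level was not tested.

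Gene lists around the receptors were read in the same classes. The first held 12 genes that activate or bind the ligands outside the cell, the second 10 adaptors and kinases below the receptors, and the third 7 negative regulators. In cancer-gated cells 3 of 9 readable genes of the first list were called lower and none higher, beside 7.12% and 2.99% of all genes, with a list median of 0.06 on the log2 scale beside -0.01 for all genes. The 3 were Pdgfrl, a secreted protein that resembles a receptor's outer domain (77.6 to 20.4 CPM, -1.93), Plau, the urokinase protease (3.74 to 1.54 CPM, -1.28), and Plat, tissue plasminogen activator, a protease that activates PDGF-C (159 to 68.7 CPM, -1.21). Nrp1, a co-receptor, was at 0.49 and Furin, a proprotein convertase, at 0.34. Of the 10 adaptors and kinases none was called in either direction, from Gab1 at -0.54 to Ptpn11, the SHP2 phosphatase, at 0.46. Of the 7 negative regulators 1 was called lower, Cblb, a ubiquitin ligase (56.6 to 25.8 CPM, -1.13), and none higher, the largest ratio being that of Rasa1, a Ras GTPase-activating protein, at 0.56.

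In stromal cells 1 of 26 readable list genes was called, Gab1, an adaptor, lower at -1.06 (-1.83 to -0.37; 168 and 19 UMIs), a share near the 2.51% of all genes called lower. Cblb was there at 0.86 and Furin at 0.73, both short of the rule, and Plau at -0.80. In macrophages, where 1.86% of all genes were called lower, so were 2 of 7 readable genes of the first list, Plat at -2.66 on 164 and 6 UMIs and Sparc, which binds the B chain, at -1.46. Both were more abundant elsewhere: in KPCA.FSTKO Plat was highest in myofibroblasts, at 1117 CPM against 14.1 CPM in macrophages, and so was Sparc, at 11958 CPM against 40.9 CPM. By class, Furin was highest in macrophages (326 CPM), Nrp1 in endothelial cells (677 CPM), Lrp1, an endocytic receptor, in fibroblasts (792 CPM), and Pdgfrl in cancer-gated cells.

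The genes whose levels followed each member most closely were found over the 13 class profiles with 20 or more cells (10 from the KPCA.FSTKO library, 3 from the other), as a description by Pearson's r of log2(CPM + 1). The profiles share libraries and their depth, so no p is given. Pdgfrb was closest to Cd248, encoding endosialin, a surface protein of pericytes and fibroblasts (0.98), Des, desmin of muscle-type cells (0.96), and Gli2, a Hedgehog transcription factor (0.96). Pdgfra was closest to Fzd3, a Wnt receptor (0.98), Nkd1, a Wnt inhibitor (0.98), and Gm43948 (0.98), and to Pdgfrb at only 0.79. Pdgfd was closest to Shroom4 (0.95), Yes1, a Src-family kinase (0.94), and Ly6c1, an endothelial surface antigen (0.94). For Pdgfa they were Saxo2 (0.92), Cdk18 (0.90) and Gm9833 (0.89), for Pdgfb Slc25a13 (0.87), Slc18a2 (0.86) and Ncam2 (0.85), and for Pdgfc Scx, a tendon transcription factor (0.85), Nr6a1os (0.83) and Cadm2 (0.83).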

How the data were processed

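The authors deposited, for each library, raw UMI counts per gene and barcode, made with Cell Ranger (3.1.0 in the submitters' processing notes, 7.2.0 per the file headers) on mm10. The counts were used as deposited. The barcodes in the files equal the cell numbers the study states, before the filter of its methods (mitochondrial share under 20%, over 200 and under 8000 genes), which was applied here. Classes came from gates on 152 markers in 16 lists; the acinar limit was set after the gate sizes were seen. Members and lists were chosen with earlier results of these data known. UMIs were summed per class with scipy 1.17.1. Clusters came from Seurat 5.3.0 (2000 variable genes, 10 components, 20 neighbours, resolution 0.8, the PDGF genes left out); levels by cluster are descriptions. Scrublet in scanpy 1.11.5 marked 86 KPCA.FSTKO barcodes, kept in the main values, and 1 KPCA.FSTKO_hFSTL3 barcode, which at 0.0247% of barcodes did not work. Named values are the 6 genes in classes of 20 or more cells, the 3 closest genes, and the 2 largest and 2 smallest ratios of each list; smaller classes and Plat of cancer-gated cells were added after their values were seen. Endogenous Fst 3′ tags do not check the knockout: Fst was at 5.17 and 7.58 CPM in cancer-gated cells. With 1 library per genotype no test was run. Alternatives were stricter gates, mixed cells reassigned, clusters in place of gates, no filter, doublets removed and TMM scaling (edgeR 4.0.16). Others were totals without acinar genes, means over cells and removal of the 5% of cells with most UMIs of a gene. Further ones kept acinar-rich barcodes in the classes or took only cancer-gated cells with no stromal or pericyte marker on.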

Additional observations from a re-analysis of the deposited data

Results flagged for a closer look

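Pdgfd went in opposite directions in 2 classes between the libraries: its log2 ratio, KPCA.FSTKO_hFSTL3 over KPCA.FSTKO, was 0.61 (0.45 to 0.77; 373 and 2817 UMIs) in cancer-gated cells and -1.89 (-3.84 to -0.41; 4 and 36 UMIs) in myofibroblasts. The difference between the classes was not tested, since each genotype was 1 library. In the cancer-gated cells without any stromal or pericyte marker on, the ratio was -0.15 (-0.47 to 0.16), and over clusters shared by both libraries it ran from 0.456 to 2.48 in fold, so the cancer value depended on which cells were compared.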

How the results depend on the processing

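Of 32 class ratios within a library, 29 were at least 2-fold, and from 22 to 30 under the alternatives. The class pairs were picked by hand, mostly with the higher class first, and no share over all genes was taken. The count therefore shows only how far these ratios held under the alternatives. Over all settings 239 of 245 class values and 155 of 171 library values kept their direction. By setting, clusters, reassigned mixed cells and means over cells each kept 14 of 17 library values. Doublet removal and totals without acinar genes, which changed little, each kept 17 of 17. With acinar-rich barcodes kept in the classes their markers gave, 31 of 32 class and 16 of 17 library values kept their direction. The log2 library ratio in cancer-gated cells ranged over the alternatives from 1.91 to 2.54 for Pdgfb, from 0.63 to 0.92 for Pdgfa, from 1.09 to 1.66 for Pdgfra and from -3.66 to -1.42 for Pdgfrb, the last value in cells with no stromal or pericyte marker on, an alternative chosen after seeing the data. That alternative also took Pdgfd to -0.15, and over all alternatives Pdgfc ran from -0.02 to 0.39. Without the 5% of cells with most UMIs of each gene, 1 gene instead of 2 was called higher and 0 instead of 1 lower, because all KPCA.FSTKO Pdgfra UMIs and all 16 KPCA.FSTKO_hFSTL3 Pdgfrb UMIs of cancer-gated cells lay in removed cells and left no value. For the same kind of reason 9 class and 5 library ratios had no value there. With mixed cells placed in the class with most of their markers, 2 instead of 1 were called lower, the added one Pdgfd of stromal cells at -1.29. With clusters in place of gates 3 were called higher, the added one Pdgfa of stromal cells at 1.03, and the stromal Pdgfb ratio, on 6 and 4 UMIs, turned to -0.17 on the log2 scale; the cause was not tested. Depth limits the classes of 9 to 16 cells and every level of a few UMIs. No paired analysis was possible because each genotype had 1 library.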
